A study of Mus musculus with 12 samples.

Results

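The transcription factors that specify and maintain heart muscle were followed in ventricular wall RNA from mice with and without Sdhaf4. The 10 factors were Gata4, Gata6, Nkx2-5, Tbx5, Tbx20, Mef2a, Mef2c, Mef2d, Hand2 and Srf. They were chosen by gene name, and each was found once among the 43686 rows of the table. All 10 were also among the 17155 rows with enough counts to be tested, and each was counted well in both genotypes, so none was tested only because it was high in 1 of them. SDHAF4 is an assembly factor of mitochondrial complex II (succinate dehydrogenase), and the comparison asks how heart mRNA differs when it is lost from muscle. The 6 WT mice were littermates with floxed Sdhaf4 alleles (Sdhaf4fl/fl) and no Cre. The 6 KO mice carried the same floxed alleles together with Ckmm-Cre, which is driven by the muscle creatine kinase promoter in cardiac and skeletal muscle, and the labels call them Sdhaf4-/- without naming the Cre. Both groups were on a C57BL/6 background, which the study's methods specify as C57BL/6J, and are labelled as 2 months old. The study's text states the age of the sequenced hearts in differing ways. Its methods name the tissue as ventricular wall and a supplementary legend as left ventricles, and its reporting summary gives male mice for omics work. Other cells of the ventricular wall, in which this promoter is not active, keep the floxed gene.

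Heart muscle identity rests on a small set of DNA-binding proteins that act together on the same enhancers. GATA4 and GATA6 are zinc finger proteins that bind GATA sequences, NKX2-5 is a homeodomain protein, TBX5 and TBX20 are T-box proteins, HAND2 is a basic helix-loop-helix protein that binds E-boxes, and the MEF2 proteins and SRF are MADS-box proteins that bind AT-rich sites and CArG boxes. They switch on genes of the sarcomere, of calcium handling and of the natriuretic peptides during development, and most of them stay expressed in the adult ventricle. GATA4, the MEF2 proteins and SRF are also known as factors whose activity rises in the stressed adult heart, largely through phosphorylation and bound cofactors, which mRNA levels do not show. Several of the factors are also made by other cells of the heart, GATA4, GATA6 and TBX20 by fibroblasts and endocardium among them, and MEF2C by the endothelium.

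The libraries held 23747014 to 27159228 counts in WT and 26542930 to 31393393 in KO. Values are given below as counts-per-million (CPM), scaled by edgeR's TMM factors, which correct library totals for a few very abundant genes. The targeted gene separated the genotypes. Sdhaf4 had 14.3 CPM in the lowest WT library (WT 6), a median of 26.7 and 30.3 in the highest, against 2.25, 2.35 and 2.73 CPM in KO, a log2 fold change of -3.39 (SE 0.16, adjusted p = 1.95e-10, by the quasi-likelihood test of edgeR, adjusted over all rows by the Benjamini-Hochberg method). Whether the remaining KO counts came from cells without Cre or from exons outside the deletion cannot be told apart. In bulk tissue, fewer cells of a type and less RNA per cell cannot be told apart either, here or in any value below. For the ventricular label, cardiac troponin T (Tnnt2) had at least 7555 CPM in every library, and of 6 atrial markers Myl7, Sln and Bmp10 had at most 0.293 CPM. The other atrial markers were detected, and their values differed between the genotypes as given with the markers of other cells. The library KO 3 held the lowest KO value of Nppa, Nppb, Ankrd1 and Acta1 and the highest of Myh6. Its Sdhaf4 level was 2.25 CPM, beside a KO median of 2.35, and what sets this library apart was not tested.

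Promoter sequences were examined for the binding motifs of the factors themselves. The RefSeq start sites used, on GRCm38.p6, which is not the assembly of the count table, gave 9 promoters for 7 of the 10 factors. Promoters of Gata4, Gata6 and Tbx5 were not among those searched, which does not show that RefSeq lacks start sites for them. The sequences of the factors that passed the test and had an entry are shown, as 170 bases on the strand of the gene, from 160 bases before the start to 10 bases from it. Capitals mark, on either strand, a CArG box, a MEF2 site or a core motif of the GATA, NKX or T-box proteins, whose letters are given with their frequencies after the sequences.
Srf, chr17:46556153-46556322, minus strand: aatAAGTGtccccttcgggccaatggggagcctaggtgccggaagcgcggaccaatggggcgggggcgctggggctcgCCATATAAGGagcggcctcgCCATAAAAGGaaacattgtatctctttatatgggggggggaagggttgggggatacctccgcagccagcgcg
Mef2a, chr7:67372849-67373018, minus strand: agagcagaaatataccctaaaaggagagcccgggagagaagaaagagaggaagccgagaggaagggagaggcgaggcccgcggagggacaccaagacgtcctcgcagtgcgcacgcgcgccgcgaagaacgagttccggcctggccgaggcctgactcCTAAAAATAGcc
Nkx2-5, chr17:26841556-26841725, minus strand: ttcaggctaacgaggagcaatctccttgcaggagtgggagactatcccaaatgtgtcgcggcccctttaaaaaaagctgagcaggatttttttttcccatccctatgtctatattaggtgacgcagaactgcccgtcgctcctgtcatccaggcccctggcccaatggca
Tbx20, chr9:24774294-24774463, minus strand: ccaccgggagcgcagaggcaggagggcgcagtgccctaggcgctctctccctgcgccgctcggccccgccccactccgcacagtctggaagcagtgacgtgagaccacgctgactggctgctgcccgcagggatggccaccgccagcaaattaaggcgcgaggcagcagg
Mef2d, chr3:88142212-88142381, plus strand: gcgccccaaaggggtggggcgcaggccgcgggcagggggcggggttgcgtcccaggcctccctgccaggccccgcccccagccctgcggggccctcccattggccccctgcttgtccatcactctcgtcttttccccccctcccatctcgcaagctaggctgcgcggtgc
The Srf promoter held 2 CArG boxes, the motif that SRF itself binds, starting 82 and 62 bases before the start site. The Mef2a promoter held a MEF2 site that begins 2 bases before the start site and spans it. Neither the Nkx2-5, the Tbx20 nor the Mef2d stretch held a capitalised motif. Windows from 250 bases before to 50 after the start were searched. A CArG box was present in 1.63% of 32851 mouse promoters and in 1 of the 9 promoters of the factors. A MEF2 site was present in 1.86% and in 1 of the 9. The GATA core AGATAA was present in 11.2% of all promoters and in that of Hand2. The T-box core AGGTGT was present in 13.7% and in 1 promoter of Mef2c. The bases compared after the start of that promoter, unlike those of the others, matched no transcript of the gene on either strand. The same promoter also holds an NKX core. The NKX core AAGTG was present in 46.4% and in 5 of the 9 promoters of the factors, which belong to 3 factors. The E-box CANNTG, which AAGTG can overlap, was present in 72.3% and in 4 of the 9, also of 3 factors. A match of letters is a description and does not show binding.

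Gata4, Tbx20, Nkx2-5 and Srf were higher in the KO hearts, Mef2a and Mef2d were lower, and Gata6, Tbx5, Mef2c and Hand2 did not pass the test. Of all rows tested, 51.1% passed an adjusted p of 0.05 in either direction. The 4 factors that rose compare with 25.6% of all rows that rose, and the 2 that fell with 25.5% that fell, so the share of factors called was near that of all genes and is not a result about the set. In 3 of the factors that rose and 1 of those that fell the 6 KO values did not overlap the 6 WT values, which was so for 14.9% of all rows upward, 15.2% downward and 30.1% in either direction. The changes were small. None of the 10 passed the stricter pair of thresholds, a log2 fold change of at least 1 at an adjusted p of 0.005, which 10.2% of all rows passed, with 5.36% of all rows doing so upward. The median log2 fold change was 0.07 over the factors and 0.002 over all rows, and the median size regardless of sign was 0.23 against 0.3. The sum of the 10 factors was 1040.3 to 1154 CPM in WT and 1156 to 1293 CPM in KO.

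**Figure D1:**
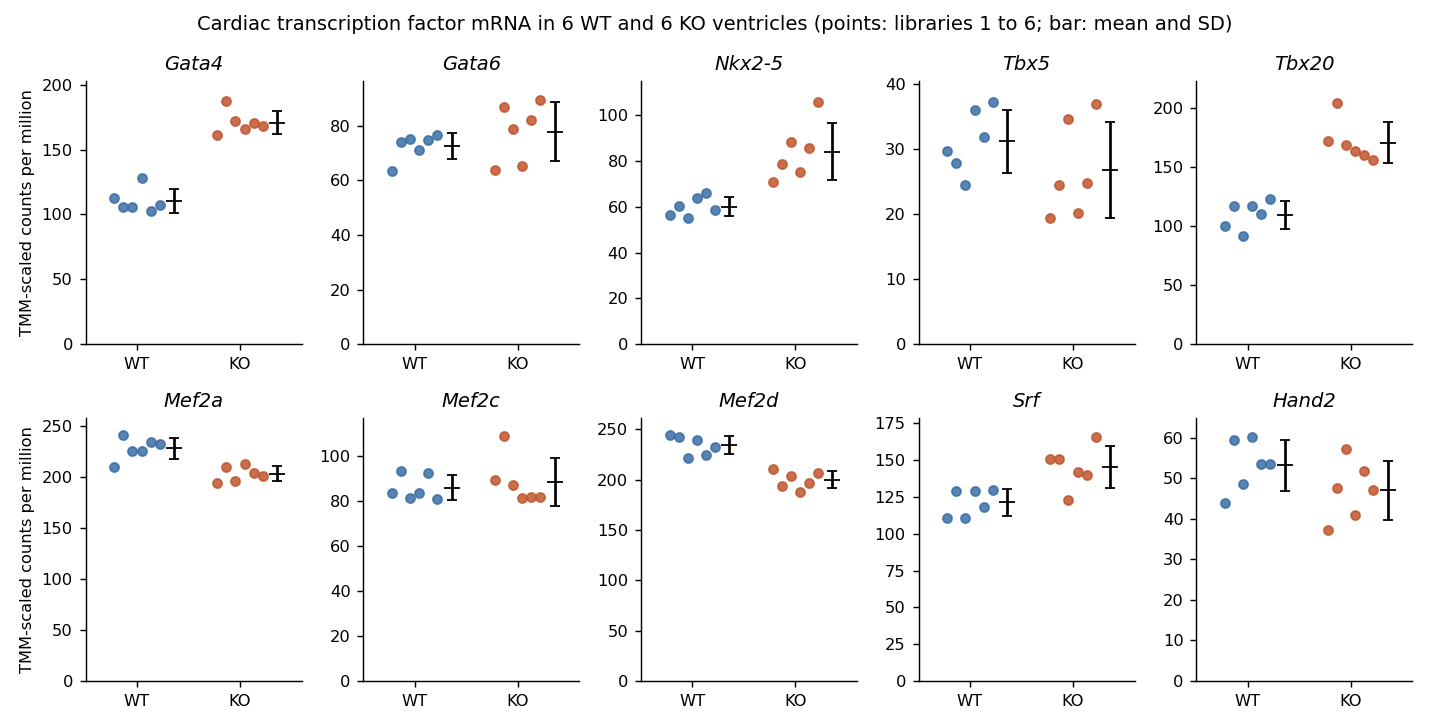
TMM-scaled CPM (vertical axes, each from 0) of the 10 factors in WT (blue) and KO (orange); each point is 1 library, 1 to 6 from left to right, and the bar gives the mean and SD of 6. Gata4, Nkx2-5 and Tbx20 lie wholly above their WT values in KO and Mef2d wholly below, while the other 6 overlap.

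**Figure D2:**
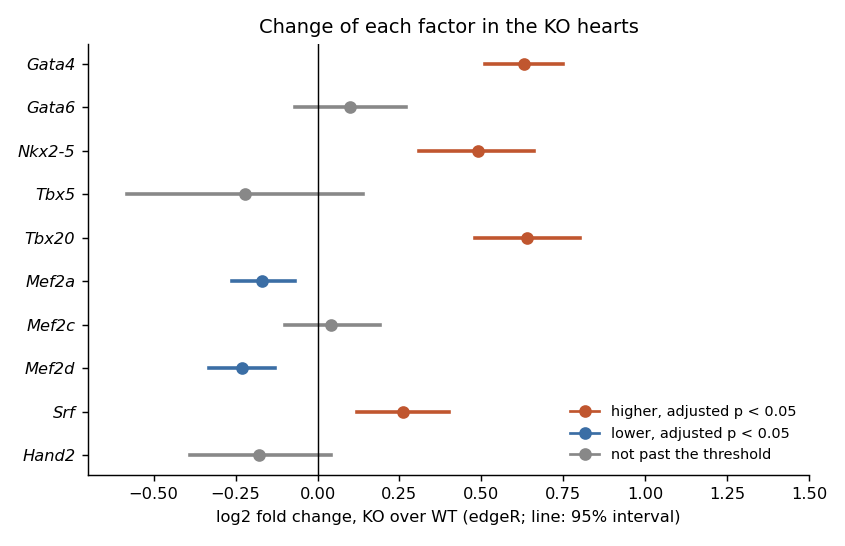
Log2 fold change of KO over WT from edgeR (horizontal axis) for each factor, with its 95% interval as a line; orange points rose, blue points fell and grey points did not pass an adjusted p of 0.05. The points reach from -0.23 for Mef2d to 0.64 for Tbx20, and the widest interval is that of Tbx5.

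Of the GATA factors, Gata4 rose and Gata6 did not pass the test. Gata4 (MGP_C57BL6NJ_G0021863, chromosome 14, 60447433 to 60528613 on the C57BL/6NJ assembly, minus strand), the factor whose dose limits growth of the ventricular wall, had 103 CPM in its lowest WT library, a median of 107 and 128 in its highest, and 161, 169 and 187 CPM in KO. The lowest KO library lay well above the highest WT library, WT 4. Gata4 rose by a log2 fold change of 0.63, or 1.54-fold (SE 0.06, 95% interval 0.51 to 0.75, adjusted p = 9.71e-08). Gata6 (MGP_C57BL6NJ_G0024558, chromosome 18), a paralog with partly shared roles, had 63.3, 74.5 and 76.7 CPM in WT and 63.8, 80.5 and 89.6 in KO as lowest, median and highest. Its groups overlapped: 4 KO libraries lay above every WT library and the other two, KO 1 and KO 4, lay between WT 1 and the remaining WT libraries. The log2 fold change of Gata6 was 0.1 (SE 0.08, 95% interval -0.07 to 0.27, adjusted p = 0.327). Its row overlaps an unnamed row on the opposite strand with a mean of 11.3 CPM over all libraries. Reads of these rows cannot be told apart because the strand setting is not stated.

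Nkx2-5, the homeodomain factor of the working myocardium and the conduction system, rose. The gene (MGP_C57BL6NJ_G0023811, chromosome 17, 27094306 to 27097207, minus strand) had 55.2, 59.5 and 65.9 CPM in WT and 70.7, 82.3 and 106 CPM in KO as lowest, median and highest. All KO libraries lay above all WT libraries, and KO 6 was the highest by a distance. This gave a log2 fold change of 0.49, or 1.4-fold (SE 0.08, 95% interval 0.31 to 0.66, adjusted p = 0.000116). The KO libraries were more spread, with a coefficient of variation (SD over mean) of 14.8% against 6.96% in WT.

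The T-box factors differed in their values, Tbx20 with the largest log2 fold change of the 10 and Tbx5 with the widest interval. Tbx20 (MGP_C57BL6NJ_G0034985, chromosome 9, 22969981 to 23023671, minus strand), which the adult heart needs to keep its contractile function, had 91.9, 114 and 123 CPM in WT and 156, 167 and 205 CPM in KO as lowest, median and highest. The groups did not overlap, and KO 2 stood above the other KO libraries, which lay between 156 and 172 CPM. Tbx20 rose by a log2 fold change of 0.64, or 1.56-fold (SE 0.08, 95% interval 0.48 to 0.8, adjusted p = 2.97e-06), and 0.58 without KO 2. Tbx5 (MGP_C57BL6NJ_G0030429, chromosome 5, 127780797 to 127836768, plus strand), the partner of NKX2-5 and GATA4 that is mutated in Holt-Oram syndrome, had 24.4, 30.7 and 37.2 CPM in WT and 19.3, 24.6 and 36.9 CPM in KO. The groups overlapped over nearly their whole range: 2 KO libraries, KO 3 and KO 6, lay among the highest WT values and KO 1 and KO 4 below all of them. The log2 fold change of Tbx5 was -0.22 (SE 0.17, 95% interval -0.58 to 0.14, adjusted p = 0.294), so a fall or a small rise could not be resolved. Its coefficient of variation was 15.7% in WT and 27.6% in KO, the highest of the 10 factors in each genotype.

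Of the MEF2 factors, Mef2a and Mef2d fell by small amounts and Mef2c did not pass the test. Mef2d (MGP_C57BL6NJ_G0027803, chromosome 3, 91535627 to 91565328, plus strand), known as a mediator of remodelling under pressure load, had 222, 237 and 244 CPM in WT and 188, 200.3 and 210.3 CPM in KO as lowest, median and highest. The groups did not overlap. Its log2 fold change was -0.23, a change of -14.7% (SE 0.05, 95% interval -0.33 to -0.13, adjusted p = 0.000475). An unnamed row on the opposite strand, with a mean of 2.05 CPM over all libraries, overlaps Mef2d. Mef2a (MGP_C57BL6NJ_G0032841, chromosome 7, 71418143 to 71572481, minus strand), the MEF2 gene whose loss in mice harms the mitochondria of heart muscle, had 209.8, 229 and 241 CPM in WT and 194, 203 and 213 CPM in KO. Its groups overlapped narrowly, since WT 1 lay below the highest KO values. For Mef2a it was -0.17, a change of -10.8% (SE 0.05, 95% interval -0.26 to -0.07, adjusted p = 0.00624). Mef2c (MGP_C57BL6NJ_G0021180, chromosome 13, 87053639 to 87223521, plus strand), the member of the family needed first in the embryonic heart, had 80.9, 83.7 and 93.6 CPM in WT and 81.5, 84.7 and 109 CPM in KO. The groups overlapped, and KO 2 was far above the other KO libraries, which lay between 81.5 and 89.6 CPM. The log2 fold change of Mef2c was 0.04 (SE 0.07, 95% interval -0.1 to 0.19, adjusted p = 0.634), and -0.02 without KO 2.

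Srf, the factor that binds CArG boxes of actin and other cytoskeletal genes and whose own promoter holds the 2 boxes shown above, rose. The gene (MGP_C57BL6NJ_G0024225, chromosome 17, 49668400 to 49677713, minus strand) had 111, 124 and 130 CPM in WT and 123, 146 and 166 CPM in KO as lowest, median and highest. The groups overlapped through 1 library, KO 3, which lay among the WT values. Srf rose by a log2 fold change of 0.26, or 1.2-fold (SE 0.07, 95% interval 0.12 to 0.4, adjusted p = 0.00404). The 2 unnamed rows that overlap the gene had means over all libraries of at most 0.293 CPM.

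Hand2, which is needed for growth of the right ventricle in the embryo, did not pass the test with all libraries. The gene (MGP_C57BL6NJ_G0034116, chromosome 8, 59223574 to 59227108, plus strand) had 43.9, 53.5 and 60.1 CPM in WT and 37.2, 47.5 and 57.3 CPM in KO as lowest, median and highest. The groups overlapped, with KO 1 and KO 4 below every WT library and KO 3 among the highest WT values. The log2 fold change was -0.18 (SE 0.1, 95% interval -0.39 to 0.04, adjusted p = 0.154). It was -0.25 with an adjusted p of 0.0362 when KO 3 was left out, and the adjusted p reached from 0.0362 to 0.308 over all alternatives.

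Per length, the factors spanned a range of levels, and Gata4 changed its place in it. On the deposited FPKM scale (fragments scaled to gene length and library size), Mef2d was the highest in WT at 114 ± 5.85 (SD, n = 6). Mef2a followed at 84.2 ± 4.81 and Gata4 at 82.9 ± 6.58, and their ranges over libraries overlapped. Mef2c at 40.2 ± 2.71 and Nkx2-5 at 39.3 ± 2.57 FPKM came next and overlapped. Then Srf, Tbx20, Hand2, Gata6 and Tbx5 descended from 29.7 ± 2.64 to 16.3 ± 2.67 FPKM with each neighbour overlapping the next. Gaps without overlap lay in WT between Mef2d and Mef2a, between Gata4 and Mef2c, and between Nkx2-5 and Srf. In KO, Gata4 had the highest FPKM, 128 ± 6.81, above Mef2d at 97.4 ± 3.63 and Mef2a at 75.2 ± 4.28, and none of these ranges overlapped. Nkx2-5 followed at 55.1 ± 7.09 FPKM, without overlap with Mef2a, and then Tbx20 at 41.6 ± 4.52, Mef2c at 41.5 ± 5.17 and Srf at 35.6 ± 3.69, each overlapping its neighbour. Gata6, Hand2 and Tbx5 closed the KO order at 24.3 ± 3.09, 21.01 ± 2.87 and 13.9 ± 3.47 FPKM, after a gap below Srf.

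The order of FPKM levels depended on the gene length behind them. The FPKM values of Gata4 correspond to a length of 1332 bases, whereas the table lists 3400 for it, and those of Mef2c to 2137 against a listed 6277. The values of Mef2a, Mef2d, Tbx20 and Tbx5 also correspond to less than the listed length, while those of Nkx2-5, Srf, Hand2 and Gata6 match it. With FPKM recomputed from the counts, the library totals and the listed lengths, Mef2d stayed first in WT at 43.4 ± 2.22, but Nkx2-5 came first in KO at 55.1 ± 7.09, followed by Gata4 at 50.2 ± 2.67. On that scale Mef2c fell to the ninth place in both genotypes, at 13.7 ± 0.921 in WT and 14.1 ± 1.76 in KO. Tbx5 was last on both scales and in both genotypes. Only 3 of 10 factors in WT and 1 of 10 in KO kept their place, so comparisons of level between genes hold no further than the lengths do, while comparisons of 1 gene between genotypes do not use the length.

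**Figure D3:**
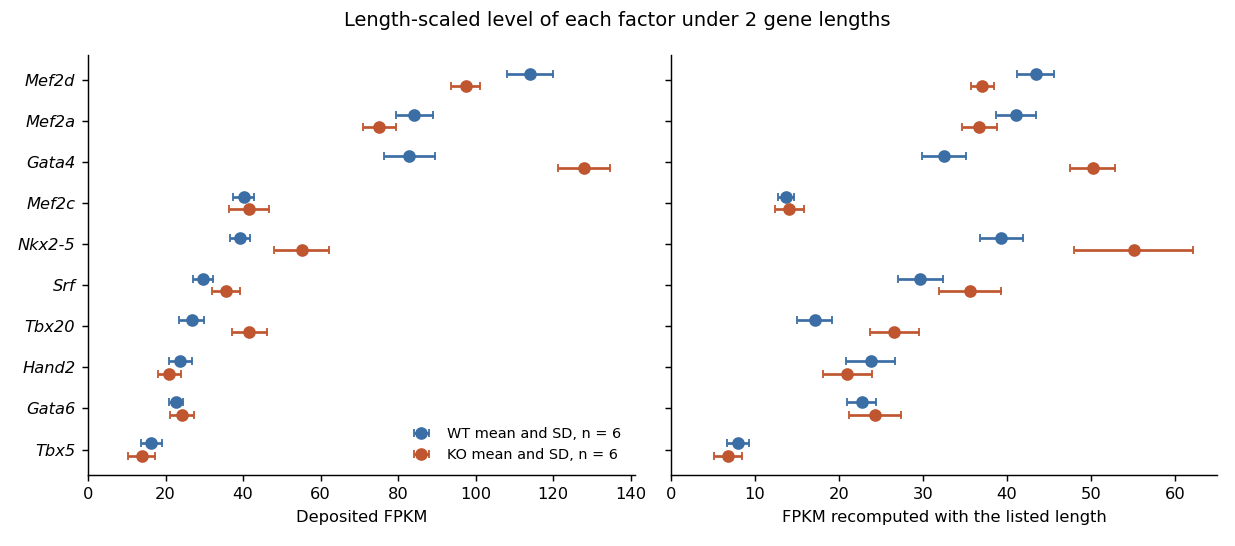
Mean level of each factor in WT (blue) and KO (orange) with the SD of 6 libraries, as deposited FPKM on the left and as FPKM recomputed with the length listed in the table on the right; both horizontal axes start at 0. Gata4 leads the KO values on the left at 128 FPKM, while Nkx2-5 leads them on the right at 55.1.

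Within families, the balance of paralogs was described without a test, since it restates the changes above. The ratio of Gata4 to Gata6 FPKM was 3.67 ± 0.473 in WT, with a range of 3.29 to 4.3, and 5.33 ± 0.622 in KO, with a range of 4.5 to 6.08. With listed lengths the same ratio was 1.44 ± 0.185 and 2.09 ± 0.244. The ratio of Tbx20 to Tbx5 FPKM was 1.66 ± 0.168 in WT and 3.18 ± 0.905 in KO, and its ranges, 1.52 to 1.96 and 1.97 to 4.14, nearly touched. Of the summed FPKM of the 3 MEF2 genes, Mef2d took 47.8% ± 1.61 in WT and 45.5% ± 2.06 in KO. Mef2a took 35.3% ± 1.27 and 35.1% ± 1.64, and Mef2c 16.9% ± 0.776 and 19.3% ± 1.84. On the scale of counts without length, Mef2d took 42.8% ± 1.58 and Mef2a 41.6% ± 1.35 in WT, and 40.7% ± 1.96 and 41.3% ± 1.74 in KO, so the order of these neighbours depended on the scale.

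The factors varied unequally among mice of the same genotype. Mef2a and Mef2d were the steadiest, with coefficients of variation of 4.65% and 3.95% in WT and 3.79% and 4.34% in KO. Counts for a factor in a library reached from 589 to 6717, for which counting alone gives an error of 4.12% and 1.22%, so most of the spread of Tbx5, Hand2 and Nkx2-5 lay beyond counting error. KO 1 held the lowest KO value of 6 of the 10 factors, and KO 6 the highest of 4 and KO 2 the highest of 3. In WT, WT 3 held the lowest value of 5 factors and WT 6 the highest of 4. Tbx5 gave the largest deviations from the mean of its genotype on the log2 scale, -0.42 in KO 1 and 0.51 in KO 6.

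**Figure D4:**
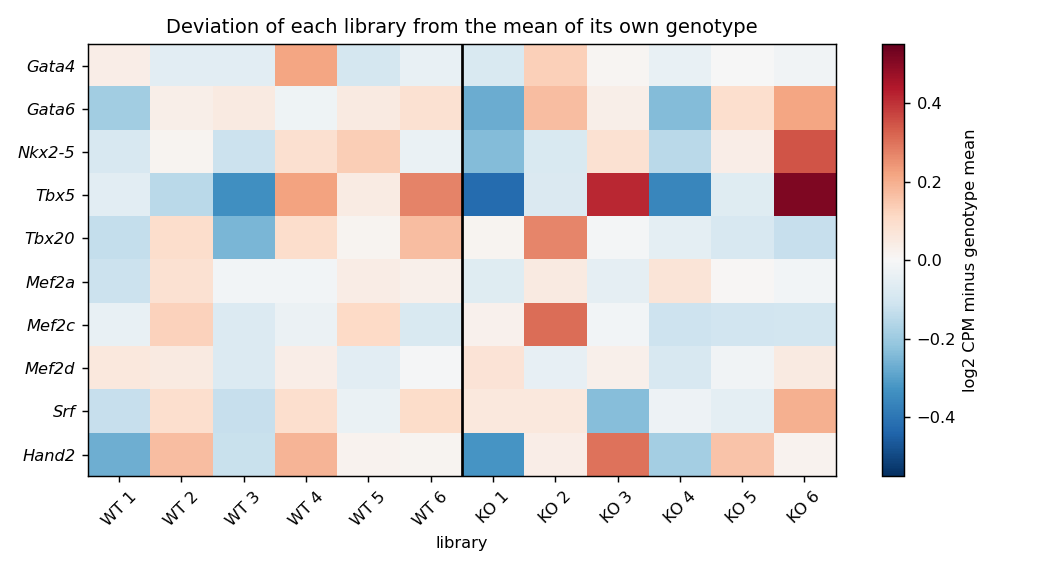
Difference of each library (columns) from the mean of its own genotype in log2 CPM (color scale) for each factor (rows), with WT to the left of the line and KO to the right. The darkest cells are those of Tbx5, from -0.42 in KO 1 to 0.51 in KO 6, while Mef2a and Mef2d stay pale throughout.

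Other transcription factors of the developing heart were called at a share near that of all rows, of which 25.6% rose and 25.5% fell. Of 24 further factors, 23 were in the table (Mef2b was not used here) and 19 had enough counts to be tested, with 7 higher, 5 lower and a median log2 fold change of 0.03. Gata5 and Hand1 were among those below the filter, as was Isl1, a factor of cardiac progenitors that had no count in any library. Unnamed rows on the opposite strand overlap Hopx and Nr2f2, with means over all libraries of 4.26 and 2.34 CPM. Hopx, the homeodomain-only protein that binds SRF, fell from 177, 216 and 224 CPM as lowest, median and highest in WT to 75.2, 108 and 127 in KO, without overlap, with a log2 fold change of -1 (SE 0.1, adjusted p = 7.84e-07). Nr2f2, which encodes the atrial and venous factor COUP-TFII, rose from 16.03, 17.3 and 18.3 CPM to 22.7, 27.9 and 32.7, also without overlap, with a log2 fold change of 0.7 (SE 0.08, adjusted p = 1.1e-06). Shox2, a factor of the sinoatrial node, was barely expressed, at 0.217 to 1.14 CPM in WT and 1.16 to 2.78 CPM in KO. Its log2 fold change was 1.32 (SE 0.32, adjusted p = 0.00251). The row of Shox2 overlaps that of Rsrc1 on the opposite strand, which had a mean of 18.6 CPM over all libraries, far more than Shox2 itself. Tbx1, a factor of the outflow tract, was as low, at 0.243 to 1.84 CPM against 1.22 to 2.7, with overlap. Its log2 fold change of 1.07 (SE 0.38, adjusted p = 0.0248) lost its call, at adjusted p from 0.0508 to 0.0585, when WT 3, WT 6, KO 2 or KO 6 was left out.

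Cofactors that bind these proteins were counted in the same way. Of 19 cofactors, all tested, 10 rose, 5 fell and 4 did not pass, beside 25.6% of all rows that rose and 25.5% that fell, with a median log2 fold change of 0.16. Hdac5, a class IIa histone deacetylase that binds and represses MEF2 proteins, fell from 138, 142 and 152 CPM as lowest, median and highest in WT to 78.7, 85.8 and 103 in KO, with a log2 fold change of -0.68 (SE 0.06, adjusted p = 1.16e-07). Hdac9, of the same class, fell from 24.1, 31.3 and 35.3 CPM to 17.97, 19.9 and 23.4, with a log2 fold change of -0.63 (SE 0.09, adjusted p = 2.48e-05). Both pairs of groups were apart, narrowly for Hdac9. The other two of the class, added after their values were seen, were Hdac4, which fell at a log2 fold change of -0.28 (adjusted p = 0.00156), and Hdac7, with a log2 fold change of 0.23 (adjusted p = 0.00488). The row of Hdac7 overlaps that of Slc48a1 on the opposite strand, which had a mean of 78.6 CPM over all libraries. Hdac7 itself had a mean of 64.6 CPM in WT and 75.7 in KO. Whether reads of the overlapping row entered its count was not tested. Fhl2, a LIM protein that binds SRF, rose from 547, 726 and 829 CPM to 880.2, 1026 and 1172, with a log2 fold change of 0.57 (SE 0.1, adjusted p = 0.000108). Mrtfa, an SRF coactivator listed in the table under its older name Mkl1, rose from 7.87, 9.15 and 10.2 CPM to 9.99, 13.2 and 15.6, with a log2 fold change of 0.51 (SE 0.11, adjusted p = 0.000948) and a slight overlap. The related SRF coactivators Mrtfb and Myocd, also added after their values were seen, had log2 fold changes of 0.5 (adjusted p = 8.72e-05) and 0.24 (adjusted p = 0.0461). Myocd thus lay near the threshold. The count of cofactors that rose was 9 with upper quartile scaling and 9 to 10 with each library left out.

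Some known target genes of the factors had fold changes far beyond those of any factor. Of 34 targets, 33 were tested, and 15 rose, 10 fell and 8 did not pass, with a median log2 fold change of 0.13, while 51.1% of all rows were called. The stricter thresholds were met by 9 targets and by 10.2% of all rows, and the targets were listed with earlier results of these data known. Nppa, which encodes atrial natriuretic peptide and is a target of GATA4, NKX2-5, TBX5 and SRF, had 156, 187 and 408 CPM as lowest, median and highest in WT and 7393, 13753 and 15641 in KO. Its log2 fold change was 5.65 (SE 0.37, adjusted p = 2.02e-07). An unnamed row on the opposite strand overlaps Nppa, with a mean of 435 CPM over all libraries of both genotypes. Its level in WT alone was not examined. Ankrd1, which encodes a cardiac ankyrin repeat protein of the sarcomere and nucleus, rose from 680, 898 and 1062 CPM to 6096, 6865 and 10039, with a log2 fold change of 3.08 (SE 0.14, adjusted p = 5e-10). Both genes were apart between genotypes by a wide margin.

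Acta1, the skeletal actin gene that SRF drives, rose from 80.9, 164 and 268 CPM in WT to 619, 1192 and 1919 in KO, with a log2 fold change of 2.78 (SE 0.37, adjusted p = 7.88e-05). Nppb, which encodes B-type natriuretic peptide, rose from 198, 282 and 365 CPM to 1208, 1556 and 2183, with a log2 fold change of 2.56 (SE 0.18, adjusted p = 1.03e-07). Neither overlapped between genotypes. Beside the 15 targets that rose, 10 of the 33 tested fell. The largest falls, added after their values were seen, were those of Fos, Cnn1 and Atp2a2. Their log2 fold changes were -2.02 (adjusted p = 0.00471), -1.1 (adjusted p = 0.0207) and -0.99 (adjusted p = 2.38e-06). Fos had 3.25 to 24.6 CPM in WT and 2.58 to 3.2 in KO. Cnn1 was weakly expressed, with a mean of 4.46 CPM in WT and 2.07 in KO. Of the myosin heavy chain genes, adult Myh6 and fetal Myh7, the call of Myh6 and the size of the Myh7 change turned on single libraries. Myh6 had 14620, 16628 and 18320 CPM in WT and 12491, 13707 and 18612 in KO, with overlap through KO 3. Its log2 fold change was -0.2 (SE 0.09, adjusted p = 0.0838), and -0.29 (adjusted p = 0.00137) without KO 3. Myh7 had 875, 953 and 1201 CPM in WT and 1238, 1899 and 6702 in KO, without overlap, and KO 6 lay far above the other KO libraries. Its log2 fold change was 1.35 (SE 0.41, adjusted p = 0.0163), and 0.78 (adjusted p = 0.00169) without KO 6. The 4 other rows that overlap Myh7 had means over all libraries of at most 174 CPM.

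Markers of other heart cells were counted beside the factors, where 25.6% of all rows rose and 25.5% fell. Of 8 fibroblast markers, 6 rose and 2 fell, with a median log2 fold change of 0.75, and their sum was 2546 to 3233 CPM in WT and 3386 to 4359 in KO. Of 8 endothelial markers, 4 rose and 2 fell, with sums of 1611 to 1768 and 1745 to 2100.4 CPM, and of 3 endocardial markers 2 rose and 1 fell, with sums of 36.3 to 77.8 and 75.2 to 104 CPM. Of 10 markers of ventricular heart muscle cells, none rose and 5 fell, with a median log2 fold change of -0.25 and sums of 63827 to 69541 and 53413 to 73373 CPM. The part of these differences in the values of Gata4, Tbx20, Mef2c and the other factors was not tested. Of 6 mural markers 2 rose and 2 fell, with sums of 1543 to 1728 and 1467 to 1940.3 CPM. Of 6 atrial markers 3 were tested, and 2 rose and 1 fell, with sums of 27.3 to 34.3 and 29.5 to 49.3 CPM. Dkk3, with a range of 2.52 to 4.2 CPM in WT and 19.01 to 38.1 in KO, and Myl4, with 1.49 to 3 and 2.74 to 4.46 CPM, rose, and Stard10, with 21.7 to 29.6 and 4.49 to 7.17 CPM, fell. Immune markers summed to 89.7 to 121 CPM in WT and 81.1 to 126 in KO, with 2 of 6 tested lower. The 1 epicardial marker of 5 that could be tested did not pass, with sums of 4.85 to 12.7 and 5.15 to 10.97 CPM. Both erythrocyte genes tested did not pass, with sums of 293 to 1011 and 614 to 1225 CPM. Of 7 skeletal muscle genes 3 were tested, and 1 rose and 1 fell. Their sum, 82.1 to 275 CPM in WT and 619.9 to 1921 in KO, was nearly all Acta1, and the defining genes Myod1 and Pax7 had no count in any library.

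Across the 12 libraries, the rows most like Tbx20 were Wls, Pspc1 and Abi2. Likeness was measured as the root mean square difference of log2 CPM, each gene centred on its own mean, over 11948 annotated rows with a mean of at least 1 CPM. It was 0.0757 for Wls, 0.093 for Pspc1 and 0.1038 for Abi2, against a median of 0.395 over all of these rows. For Mef2d, the factor with the largest fall, Rnf40 at 0.0397, Vps33a at 0.0419 and Nbr1 at 0.0435 were the closest, against a median of 0.239. The profiles include the difference between genotypes, and the log2 fold changes of the 3 genes near Tbx20 were 0.63, 0.57 and 0.67, and those of the 3 near Mef2d -0.21, -0.23 and -0.25.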

How the data were processed

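RNA from the ventricular wall of 6 WT and 6 KO mice was enriched for poly-A mRNA and sequenced in bulk, and groups were taken from the sample labels. The authors counted reads per gene with HTSeq and deposited raw counts, together with FPKM values per library. The submitters' processing notes list HISAT2 2.0.5 and mm10, whereas the identifiers and coordinates are of the C57BL/6NJ assembly. The strand setting is not given in the sources used here. Columns with the authors' group means, fold changes and p-values were not used.

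The counts were fitted with edgeR 4.0.16 under R 4.3.3 (filterByExpr, TMM, robust quasi-likelihood test, Benjamini-Hochberg adjustment over 17155 rows). A row was called at an adjusted p of 0.05. Standard errors and 95% intervals derive from the F statistic. The fit was also run on simulated counts, in which far fewer rows differed than in these hearts, so that run does not measure its error here. CPM are TMM-scaled counts. FPKM served for levels between genes only. No batch is given in the labels. Any 2 libraries of a genotype differed by more than sampling noise. Each library was taken as 1 mouse. The study gives n = 6 for the sequencing and does not state that each library came from 1 mouse.

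The factors and the lists of other factors, cofactors, targets and markers were chosen, from general knowledge, with earlier results of these data known. Named were all factors, the 4 largest called changes of each of the lists of other factors, cofactors and targets, with Nppa, Nppb, Myh6 and Myh7, and the 3 annotated rows most like the factors with the largest rise and fall. Promoters are from RefSeq.

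Alternatives were upper quartile scaling, library totals alone, DESeq2 size factors, DESeq2 1.42.0, limma-voom (limma 3.58.1), no robust dispersions, no filter, at least 10 counts in 6 libraries, a replicate block and each library left out. For levels they were CPM without length. Leaving out unannotated loci and using the listed length were chosen after seeing the data.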

Additional observations from a re-analysis of the deposited data

Results flagged for a closer look

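In 6 of the 50 groups of 6 libraries examined, the highest or lowest library lay far from the others by Dixon's criterion, which chance meets in about 2.5 such groups. Of the factors, Tbx20 had 205 CPM in KO 2 against 156 to 172 in the other KO libraries, and Mef2c had 109 CPM in the same library against 81.5 to 89.6. Among other genes, Myh7 had 6702 CPM in KO 6 against 1238 to 2247 and Myh6 had 18612 CPM in KO 3 against 12491 to 14590.1. Hopx had 177 CPM in WT 2 against 211 to 224, and the targeted gene Sdhaf4 had 2.73 CPM in KO 1 against 2.25 to 2.41. What sets these libraries apart was not tested.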

How the results depend on the processing

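Over 22 alternatives, Gata4, Tbx20, Nkx2-5 and Srf stayed higher and Mef2a and Mef2d lower in KO, each past the threshold, with the highest adjusted p at 8.45e-06, 2.86e-05, 0.000502, 0.0138, 0.0175 and 0.00336. Gata6 and Tbx5 never passed. With each library left out, the log2 fold change reached from 0.6 to 0.67 for Gata4, 0.58 to 0.67 for Tbx20, 0.41 to 0.53 for Nkx2-5 and 0.21 to 0.3 for Srf. It reached from -0.2 to -0.15 for Mef2a, -0.25 to -0.21 for Mef2d, -0.25 to -0.12 for Hand2, -0.02 to 0.07 for Mef2c, 0.05 to 0.15 for Gata6 and -0.34 to -0.14 for Tbx5. Hand2 passed only without KO 3 (-0.25, adjusted p = 0.0362), and Mef2c changed sign only without KO 2 (-0.02, adjusted p = 0.74). The counts of factors called were 4 higher throughout and 2 to 3 lower.

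Tbx1 lost its call without WT 3 (1.03), WT 6 (0.91), KO 2 (0.96) or KO 6 (0.96), and Myh6 passed only without KO 3 (-0.29). The orders of level moved most: with CPM without length, 3 factors in WT and 5 in KO kept their place, and with listed length 3 and 1, against 8 to 10 with each library left out. The cause lies in the lengths, which these scales change by construction.

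WT and KO share replicate numbers, but libraries with the same number did not deviate together: their correlations were -0.162 to 0.024 over 6 pairs, and 1 of 6 correlated best with its own number. With the number as a replicate block, 4 factors were still higher and 2 lower (log2 fold change 0.63 for Gata4, 0.64 for Tbx20, 0.48 for Nkx2-5, 0.26 for Srf, -0.16 for Mef2a and -0.23 for Mef2d). The block gave 4123 rows higher and 4110 lower, against 4391 and 4376 without it.

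Counts limit the weakly expressed Shox2 and Tbx1, and a spread as wide as that of Tbx5 leaves changes of its size unresolved.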
